A study of Bos taurus with 24 samples.

Results

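NR4A1, NR4A2 and NR4A3 are the genes of the NR4A group of orphan nuclear receptors. They were found by symbol among the 27550 rows with a gene symbol in the deposited RNA-Seq tables, which hold 59846 rows in all. All 3 were present, each on a single row, and all 3 passed the filter on low counts in every comparison. They were chosen by name, with earlier results of these data known.

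Nuclear receptors are transcription factors, most of which are switched on by a hormone or another small lipophilic ligand. The NR4A receptors are called orphans because the pocket that would hold a ligand is filled by bulky side chains, so that their activity follows mainly from how much of the protein a cell makes. NR4A1 (Nur77), NR4A2 (Nurr1) and NR4A3 (NOR1) are immediate-early genes, switched on by growth factors, cyclic AMP, calcium and inflammatory stimuli from factors such as CREB, MEF2, SRF and NF-kB that are already in the cell. The proteins bind a shared DNA element, the NBRE, and NR4A1 and NR4A2 also pair with the retinoid X receptors, a partnership not known for NR4A3. In fibroblasts NR4A1 is known as a brake on transforming growth factor beta signalling, and in macrophages the family is known to restrain NF-kB target genes.

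Poly(A) RNA was sequenced from cultured dermal fibroblasts of 4 Holstein heifers, a dairy breed, and 4 Angus heifers, a beef breed, to ask whether the breeds differ in their response to lipopolysaccharide (LPS). LPS, an outer membrane glycolipid of Gram-negative bacteria sensed by Toll-like receptor 4, was given at 100 ng/ml. The groups were Angus 0 h, Angus 2 h, Angus 8 h, Holstein 0 h, Holstein 2 h and Holstein 8 h, with 4 samples each, where the 0 h cultures had received no LPS and the same animal gave a sample at each hour. The cultures were third-passage cells from shoulder skin of heifers of one age, revived from cryopreservation, and lysates of duplicate wells were pooled, so a sample is 1 animal at 1 hour. There was no untreated culture at 2 h or 8 h, so LPS and time in culture cannot be told apart.

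Total counts per sample ranged from 51014538 to 104406293, and levels are given as CPM, each count being scaled to the size of its library, after TMM scaling between libraries. The cells carried the markers of fibroblasts, with 9 of 9 at a median of at least 1 CPM and a summed level of 37757 to 124499 CPM. The 6 leukocyte markers summed to between 0.84 and 2.29 CPM, and PTPRC, CD14 and CSF1R stayed under 1 CPM in every sample. Keratinocyte markers summed to at most 14.9 CPM, endothelial markers to at most 5.22 CPM, melanocyte markers to at most 12.2 CPM and Schwann cell markers to at most 7.89 CPM. Of 5 smooth muscle or pericyte markers, 4 were at a median of at least 1 CPM, led by ACTA2, which cultured fibroblasts also express. The collagen gene COL1A1 had been counted differently in 4 libraries, which were Angus animal 3 at 2 h and, at 0 h, Angus animal 4 and the Holstein animals 2 and 4. Its covered bases for each count were 66.2 to 67.1 there and 111.8 to 119 elsewhere. These libraries also differed as a whole, with 96.23 to 96.54% of reads matched, beside 92.88 to 95.25% in the other 20. They held 1.562 to 1.712 counts for each matched read, beside 1.5 to 1.542. In Angus animal 3 at 2 h 20.53% of counts lay in rows without a symbol, beside at most 15.45% in the other 20. The cause of these differences was not tested. The NR4A rows showed no shift of that size. Their covered bases per count in those 4 libraries were 78.5 to 79.3 for NR4A1, 82.0 to 84.6 for NR4A2 and 73.2 to 78.6 for NR4A3. In the remaining libraries they were 76.3 to 80.7, 80.3 to 84.8 and 73.4 to 77.3. For NR4A3 the 0 h libraries of Angus animal 4 (73.2) and Holstein animals 2 and 4 (78.3 and 78.6) lay just outside the range of the rest. Results that change without these libraries are given both ways.

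On the bovine build UMD v3.1, to which the tables refer, NR4A1 lies on the minus strand of chromosome 5 from 27977007 to 27992869. NR4A2 lies on the plus strand of chromosome 2 from 39999717 to 40017029, and NR4A3 on the plus strand of chromosome 8 from 65339464 to 65373695. Each row is the whole span of the gene, exons, introns and untranslated regions together, and no other row overlaps it. The counts per sample were 680 to 12624 for NR4A1, 479 to 4768 for NR4A2 and 122 to 3136 for NR4A3, so counting error was small beside the spread between animals.

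NR4A1 was at a low level before LPS and peaked at 2 h in every animal. In the Angus animals 1 to 4 its level was 17.8, 12.3, 22.04 and 15.3 CPM at 0 h, 80.3, 52.5, 128 and 49.1 CPM at 2 h, and 27.8, 16.4, 62.4 and 11.8 CPM at 8 h. In the Holstein animals 1 to 4 it was 13.6, 10.2, 10.4 and 14.98 CPM at 0 h, 154, 111, 98.0 and 179 CPM at 2 h, and 36.3, 28.7, 23.3 and 45.8 CPM at 8 h. Every 2 h sample lay above every 0 h sample. Angus animal 4 was the only animal whose 8 h level was below its own 0 h level, and Angus animal 3 was the highest Angus animal at each hour. In bulk RNA a higher level can come from more cells that use the gene or from more RNA per cell, which cannot be told apart.

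NR4A2 started from a narrow range, was higher at 2 h and stayed near its 2 h level. In the Angus animals it was 12.8, 11.5, 11.6 and 12.8 CPM at 0 h, 28.2, 20.6, 48.0 and 23.3 CPM at 2 h, and 35.4, 19.0, 49.9 and 20.2 CPM at 8 h. In the Holstein animals it was 12.6, 10.1, 9.97 and 10.6 CPM at 0 h, 30.3, 26.4, 21.6 and 35.3 CPM at 2 h, and 34.6, 31.7, 21.3 and 39.0 CPM at 8 h. All 16 samples after LPS lay above all 8 samples before it, and the breeds overlapped at each hour. Angus animal 3 was again the highest at 2 h and 8 h, although at 0 h its NR4A2 level lay within the range of the other animals.

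NR4A3 had the lowest counts of the group and an intermediate course. In the Angus animals it was 4.09, 5.61, 4.35 and 6.04 CPM at 0 h, 20.6, 21.9, 38.6 and 13.4 CPM at 2 h, and 9.68, 9.23, 23.1 and 5.61 CPM at 8 h. In the Holstein animals it was 4.03, 2.24, 3.36 and 2.69 CPM at 0 h, 25.8, 23.3, 18.7 and 19.0 CPM at 2 h, and 19.7, 13.2, 11.04 and 18.9 CPM at 8 h. The 4 Holstein samples at 0 h lay below the 4 Angus samples at 0 h, with no overlap. After LPS the breeds overlapped, and Angus animal 4 at 8 h was back within the Angus range of 0 h.

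**Figure D1:**
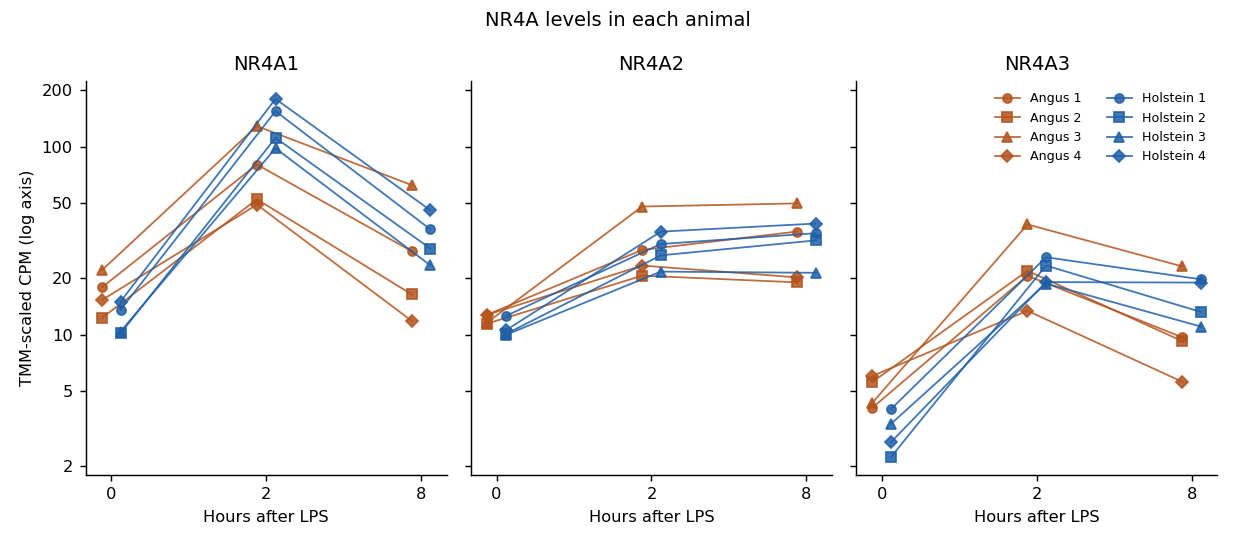
Level of each NR4A gene in TMM-scaled CPM on a log axis at 0 h, 2 h and 8 h after LPS, with a line for each of the 8 animals, Angus in brown and Holstein in blue. NR4A1 peaks at 2 h in every animal, NR4A2 stays at its 2 h level, and NR4A3 lies between, with Holstein below Angus at 0 h.

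Ordered by group mean, NR4A1 ran from Holstein 2 h (136 ± 37.7 CPM, SD, n = 4) through Angus 2 h (77.6 ± 36.7), Holstein 8 h (33.5 ± 9.76), Angus 8 h (29.6 ± 22.9) and Angus 0 h (16.9 ± 4.14) to Holstein 0 h (12.3 ± 2.38). Only the step from Angus 2 h to Holstein 8 h had no overlap between neighbouring groups. NR4A2 fell into a set of 4 groups after LPS, with means of 28.4 to 31.7 CPM that overlapped throughout, and the groups at 0 h, Angus (12.1 ± 0.716 CPM) and Holstein (10.8 ± 1.21 CPM). NR4A3 ran from Angus 2 h (23.6 ± 10.6 CPM) and Holstein 2 h (21.7 ± 3.44) through Holstein 8 h (15.7 ± 4.25) and Angus 8 h (11.9 ± 7.66) to Angus 0 h (5.02 ± 0.947) and Holstein 0 h (3.08 ± 0.782). For NR4A3 the step between the breeds at 0 h was the one without overlap. For NR4A1 at 8 h the highest Angus sample was 5.28 times the lowest.

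At 2 h all 3 genes rose. Rows were called on a false discovery rate (FDR) under 0.05 over all rows by the edgeR likelihood-ratio test, a change of at least 2-fold and a mean above 1 CPM. With the breeds combined, 2.08% of the 20157 rows tested were called higher at 2 h, and all 3 NR4A genes were among them. NR4A1 rose 7.31-fold, a log2 fold change of 2.87 ± 0.26 (SE) with an edgeR FDR of 2.44e-23. NR4A3 rose 5.57-fold (log2 fold change 2.48 ± 0.22, edgeR FDR 7.66e-24), and NR4A2 rose 2.54-fold (1.35 ± 0.16, edgeR FDR 5.29e-15). Each was higher in 8 of 8 animals, as were 17.8% of rows, and for each the 8 samples at 2 h lay above the 8 samples at 0 h, which held for 3.98% of all rows tested. Among the 12882 symbols tested, NR4A1 ranked 35 from the largest rise, NR4A3 ranked 44 and NR4A2 ranked 150.

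At 8 h all 3 genes were still above 0 h, and their order had changed. In this comparison 1.07% of 20368 rows were called higher. NR4A3 was 3.40-fold higher (log2 fold change 1.77 ± 0.27, edgeR FDR 3.46e-08), in 7 of 8 animals. NR4A2 was 2.73-fold higher (1.45 ± 0.18, edgeR FDR 7.89e-13), in 8 of 8 animals and with no overlap between the hours, as for 1.66% of rows. NR4A1 was 2.16-fold higher (1.11 ± 0.28, edgeR FDR 0.00176), in 7 of 8 animals. With the animal as a block the log2 fold change of NR4A1 was 0.99 (edgeR FDR 8.55e-06), just under the 2-fold limit, so that the call was lost on size while the FDR fell.

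From 2 h to 8 h the members parted. NR4A1 fell by 1.75 on the log2 scale (SE 0.33, edgeR FDR 4.66e-06) and was lower in 8 of 8 animals, where 1.61% of 20291 rows were called lower. NR4A3 was also lower in 8 of 8 animals, with a log2 fold change of -0.71 ± 0.27 (edgeR FDR 0.0370), which passed the FDR limit, as 11.6% of rows did downward, without reaching 2-fold. Rows lower in all 8 animals made up 17.2%. NR4A2 had a log2 fold change of 0.11 ± 0.22 (edgeR FDR 0.804) and was higher in 5 of 8 animals, and the 95% interval of the difference ran from -0.32 to 0.54.

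The level at 8 h as a percentage of the same animal's 2 h level put numbers on this. For NR4A1 it was 34.6, 31.2, 48.5 and 24.1% in the Angus animals and 23.5, 25.8, 23.8 and 25.6% in the Holstein animals. For NR4A2 it was 125, 92.1, 104 and 86.5% in Angus and 114, 120.1, 98.5 and 110.4% in Holstein. For NR4A3 it was 47.1, 42.2, 59.8 and 41.9% in Angus and 76.3, 56.7, 59.1 and 99.4% in Holstein. The Holstein animals lay close together for NR4A1 and far apart for NR4A3.

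The genes of the group differed from each other in how far they moved within the same cultures. The differences between members were tested per animal, as the difference of log2 changes of CPM plus 0.5, with an exact two-sided sign-flip permutation test and adjustment over 9 tests, in which 8 animals allow no P below 0.0078. At 2 h the log2 change of NR4A1 exceeded that of NR4A2 by 1.47 ± 0.66 (SD, n = 8) in 8 of 8 animals (exact permutation P = 0.0078, adjusted P = 0.0117). NR4A3 also exceeded NR4A2 at 2 h, by 1.08 on average, since NR4A2 minus NR4A3 was -1.08 ± 0.43 and negative in 8 of 8 animals (exact permutation, adjusted P = 0.0117). NR4A1 and NR4A3 differed by 0.40 ± 0.52 at 2 h, positive in 6 of 8 animals, which missed the limit (exact permutation, adjusted P = 0.0879).

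For the change from 2 h to 8 h all 3 pairs differed, each with an adjusted P of 0.0117 by the exact permutation test. NR4A1 minus NR4A2 was -1.86 ± 0.39, NR4A1 minus NR4A3 was -1.02 ± 0.61, and NR4A2 minus NR4A3 was 0.84 ± 0.37, each with the same sign in 8 of 8 animals. For 8 h against 0 h, NR4A1 changed less than NR4A3 by 0.62 ± 0.29 on the log2 scale in 8 of 8 animals, since NR4A1 minus NR4A3 was -0.62 (exact permutation, adjusted P = 0.0117). NR4A1 minus NR4A2 was -0.38 ± 0.38 and negative in 7 of 8 animals (exact permutation, adjusted P = 0.0301), a call that was lost when any of 6 of the animals was left out. NR4A2 minus NR4A3 was -0.24 ± 0.55 (exact permutation, adjusted P = 0.289).

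**Figure D2:**
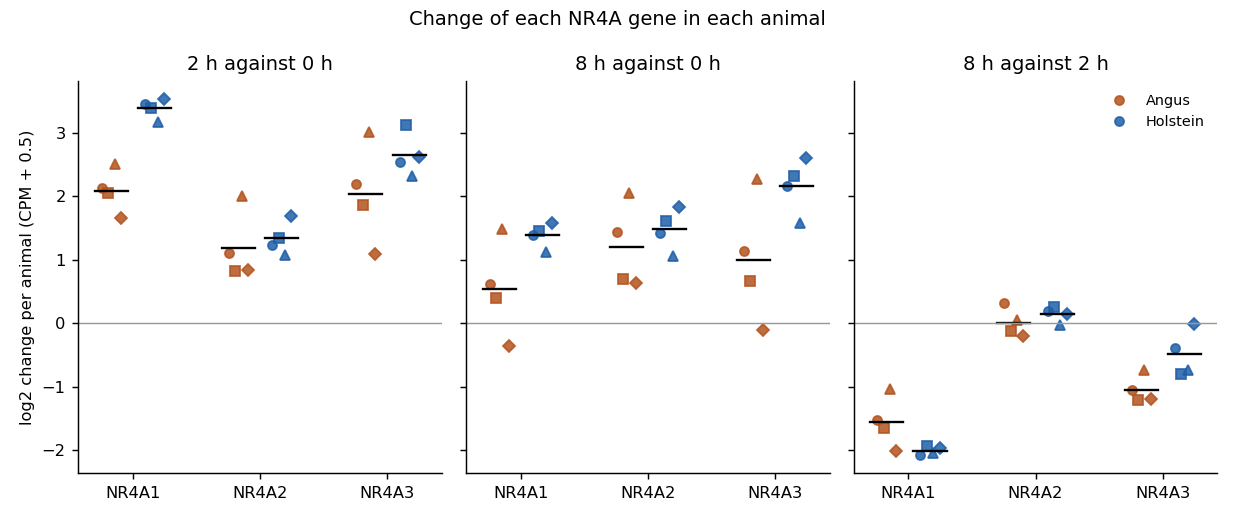
Log2 change of CPM plus 0.5 in each animal, for 2 h against 0 h, 8 h against 0 h and 8 h against 2 h, with Angus in brown, Holstein in blue, a marker shape for each animal number and a black line at the mean of 4 animals. The 4 Holstein changes of NR4A1 at 2 h, 3.18 to 3.54, lie above the 4 Angus changes, 1.65 to 2.52, and NR4A2 sits near 0 from 2 h to 8 h.

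Within the Holstein animals all 3 genes were called higher at both hours. At 2 h, where 2.44% of 20326 rows were called higher, the log2 fold changes were 3.46 ± 0.21 for NR4A1, 1.39 ± 0.16 for NR4A2 and 2.81 ± 0.20 for NR4A3, with edgeR FDRs of 4.49e-46, 3.81e-15 and 3.82e-39. At 8 h, where 1.93% of 20489 rows were called higher, they were 1.45 ± 0.22, 1.56 ± 0.18 and 2.35 ± 0.25, with edgeR FDRs of 8.94e-09, 1.10e-14 and 7.23e-18. From 2 h to 8 h NR4A1 fell by 2.02 (SE 0.25, edgeR FDR 5.74e-13, with 2.18% of rows called lower), and its 4 samples at 8 h lay below the 4 at 2 h, as for 13.4% of rows. NR4A3 had a log2 fold change of -0.47 ± 0.20 (edgeR FDR 0.0839).

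Within the Angus animals all 3 genes were called higher at 2 h, where 1.97% of 20352 rows were called higher. The log2 fold changes were 2.20 ± 0.32 for NR4A1, 1.31 ± 0.26 for NR4A2 and 2.23 ± 0.31 for NR4A3, with edgeR FDRs of 5.72e-09, 1.82e-05 and 4.15e-10. Without Angus animal 3 the NR4A2 change was 0.96, under 2-fold. At 8 h, where 0.592% of 20617 rows were called higher, NR4A2 was called (1.35 ± 0.30, edgeR FDR 8.72e-04), and not under the quasi-likelihood F test (FDR 0.0623) or without Angus animal 1 (FDR 0.0530).

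In the Angus animals at 8 h NR4A3 had a log2 fold change of 1.24 ± 0.40 with an edgeR FDR of 0.0521, and NR4A1 one of 0.81 ± 0.47 with an FDR of 0.481. With the animal as a block NR4A3 was called (1.06, edgeR FDR 0.0127), though not by the blocked F test (FDR 0.0580), and NR4A1 was not (0.54, FDR 0.102). Without Angus animal 4 the NR4A3 value was 1.58 (FDR 0.00668), and without Angus animal 3 it was 0.64 (FDR 0.282) and that of NR4A1 0.30 (FDR 0.842). From 2 h to 8 h, where 1.4% of 20430 rows were called lower, none of the 3 genes was called in Angus without a block, with log2 fold changes of -1.39 ± 0.52 for NR4A1 (edgeR FDR 0.0688) and -0.98 ± 0.46 for NR4A3 (FDR 0.168). Both genes were lower at 8 h in all 4 Angus animals, and with the animal as a block both were called, at -1.57 (edgeR FDR 8.30e-24) and -1.07 (FDR 2.51e-20). Without Angus animal 3 they were called with no block, at -1.70 (FDR 5.21e-05) and -1.19 (FDR 9.11e-04).

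Between the breeds at 0 h NR4A3 had its lower values in Holstein. Its log2 fold change, Holstein against Angus, was -0.71 ± 0.24 with an edgeR FDR of 0.0274, a level past the FDR limit, as for 6.98% of 20385 rows in this direction, but under 2-fold. Rows whose 4 Holstein samples lay below the 4 Angus samples made up 7.99%. Without the libraries with the other COL1A1 counting, 3 of which are 0 h samples, the value was -0.35 (edgeR FDR 0.717), no longer past the limit. At 0 h summed marker levels of other cell types also separated the breeds, with 5.84 to 7.92 CPM in Holstein and 10.3 to 11.4 CPM in Angus for melanocytes, and 6603 to 8104 and 3729 to 6095 CPM for smooth muscle cells or pericytes, and the fibroblast sum was 72384 to 124499 and 53123 to 68712 CPM. Their part in the NR4A3 difference was not tested. NR4A1 had a log2 fold change of -0.46 ± 0.21 (FDR 0.137) and NR4A2 of -0.17 ± 0.13 (FDR 0.430), with 95% intervals from -0.87 to -0.04 and from -0.43 to 0.09.

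After LPS no NR4A gene was called between the breeds, at 2 h beside 2.44% of 20184 rows called higher in Holstein, and at 8 h beside 3.25% of 20679 rows called in either direction. At 2 h the NR4A1 level in Holstein was 1.74-fold that in Angus (log2 fold change 0.80 ± 0.33, edgeR FDR 0.0653). The overlap came from Angus animal 3 alone, since its 128 CPM lay within the Holstein range of 98.0 to 179 CPM while the other 3 Angus animals lay below it. Without that library, which is also the 2 h library with the other COL1A1 counting, the value was 1.16 (edgeR FDR 1.42e-04) and the gene was called, as were 775 of 20030 rows in this direction. NR4A2 and NR4A3 at 2 h had log2 fold changes of -0.08 ± 0.27 (FDR 0.866) and -0.13 ± 0.29 (FDR 0.804), with 95% intervals from -0.62 to 0.45 and from -0.69 to 0.44. At 8 h the values were 0.18 ± 0.47 for NR4A1, 0.03 ± 0.32 for NR4A2 and 0.40 ± 0.40 for NR4A3, with edgeR FDRs of 0.840, 0.967 and 0.542. Without Angus animal 3 they were 0.84, 0.35 and 0.94 (FDR 0.0432, 0.382 and 0.00584), each under 2-fold.

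The breeds were also compared in the change itself, as an interaction of breed and hour. For NR4A1 at 2 h the rise in Holstein exceeded that in Angus by 1.27 ± 0.41 on the log2 scale, and the edgeR FDR was 0.245, where 0.193% of rows were called in this direction. The 4 Holstein animals rose 9.04- to 11.6-fold and the 4 Angus animals 3.14- to 5.72-fold, with no overlap, which held in this direction for 5.48% of 20157 rows. With the animal as a block, which the shared animal numbers allow, the difference was 1.33 ± 0.17 (edgeR FDR 1.69e-12) and was called, and this fit called 126 rows where the fit without a block called 56. The quasi-likelihood F test in that blocked design, added after the data had been seen, gave 1.33 with an FDR of 0.00418. Without the libraries with the other COL1A1 counting, and with no block, it was 1.69 (edgeR FDR 0.0260), and without Angus animal 3 it was 1.46 (FDR 0.00531).

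The other interactions were not called, where 0.0982% of rows were called in either direction for 8 h against 0 h and 0.286% for 8 h against 2 h. At 2 h the difference was 0.10 ± 0.32 for NR4A2 (edgeR FDR 1.00, 95% interval from -0.53 to 0.72) and 0.59 ± 0.39 for NR4A3 (FDR 1.00). At 8 h against 0 h it was 0.63 ± 0.56 for NR4A1, 0.19 ± 0.37 for NR4A2 and 1.10 ± 0.49 for NR4A3, each with an edgeR FDR of 1. For NR4A3 it was 1.71 (FDR 0.00474) without Angus animal 3, the Angus animal with the largest rise. The change from 2 h to 8 h was also compared between the breeds with an exact two-sided permutation test, for which 4 animals against 4 allow no P below 0.0286. The log2 change of NR4A1 averaged -2.004 ± 0.07 over the Holstein animals and -1.55 ± 0.40 over the Angus animals (SD, 4 each), with an exact permutation P of 0.0857, adjusted over the 3 genes 0.129. That of NR4A3 was -0.48 ± 0.36 in Holstein and -1.04 ± 0.22 in Angus (exact permutation P = 0.0857, adjusted 0.129). With the animal as a block the interaction for NR4A3 from 2 h to 8 h was 0.59 ± 0.19 with an edgeR FDR of 0.0382, under 2-fold.

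Because the rows differ in length, levels of different members were compared as CPM per kilobase of row, introns included. On this scale NR4A1 made up 53.4 ± 5.4% of the summed NR4A level at 0 h (SD, n = 8), 72.5 ± 6.9% at 2 h and 45.7 ± 5.3% at 8 h. NR4A2 made up 39.6 ± 4.6, 19.7 ± 5.0 and 44.7 ± 6.0% at these hours, and NR4A3 7.0 ± 2.0, 7.8 ± 2.5 and 9.6 ± 1.7%. At 2 h the NR4A1 share was 64.1 to 69.4% in the Angus animals and 76.1 to 81.3% in the Holstein animals, without overlap, and the NR4A2 share was 22.4 to 27.8% and 14.3 to 16.5%. Polyadenylated RNA comes mostly from exons, and the exon length of each gene was not used here, so these shares describe the rows rather than molecules.

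**Figure D3:**
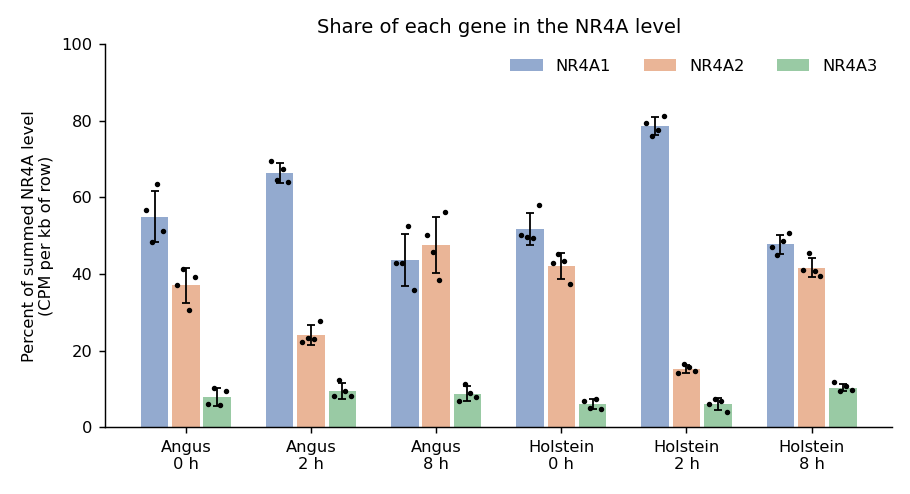
Share of each NR4A gene in the summed NR4A level of a sample, in percent of CPM per kilobase of row, by breed and hour. Bars are means, error bars the SD and points the 4 animals, and the NR4A1 share at 2 h is 66.3% in Angus and 78.6% in Holstein.

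With the breeds combined, no other nuclear receptor was called higher with the NR4A genes. Of 44 listed members of the superfamily, 25 reached the level needed for the test at 2 h with the breeds combined. None of them was called higher at 2 h or 8 h by edgeR, and 1 was called lower, at 2 h, beside 0.739% of all rows: NR1D1 (REV-ERB alpha), a repressor of the circadian clock. It went from a mean of 11.9 to 3.33 CPM in Angus and from 12.4 to 4.95 CPM in Holstein (log2 fold change -1.55 ± 0.16, edgeR FDR 1.39e-19). With the breeds combined it then rose by 8 h (1.49 ± 0.22 against 2 h, FDR 2.59e-09, beside 1.15% of rows called higher). The breeds differed in how far it came back. Its mean at 8 h was 15.045 CPM in Angus, above that at 0 h, and 8.204 CPM in Holstein, below that at 0 h. The median log2 change of the 25 was -0.12 at 2 h, beside -0.0039 over all rows, and their values ran from -1.55 to 0.63, below the lowest NR4A value of 1.35. On the FDR limit alone 2 of the 25 passed upward and 5 downward at 2 h, beside 2170 and 2266 of all 20157 rows, and 1 upward and 4 downward at 8 h, beside 1334 and 1272 of 20368. RARA, a retinoic acid receptor, was at the top of that range at 2 h (0.63 ± 0.10, FDR 4.05e-08, under 2-fold) and below 0 h at 8 h (-0.39 ± 0.10, FDR 0.00292). It was the receptor called lower from 2 h to 8 h (-1.02 ± 0.09, FDR 6.06e-28), from -1.06 to -0.98 with each animal left out, and under 2-fold in 3 of those 8 fits. In the Holstein animals alone, 1 of 26 receptors tested was called higher at 8 h, beside 1.93% of all rows. This was another retinoic acid receptor gene, RARB (1.79 ± 0.53), whose mean of 1.01 CPM was just past the limit of 1 CPM. A row so near that limit can enter the test through its higher group alone, so no FDR of it is given.

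**Figure D4:**
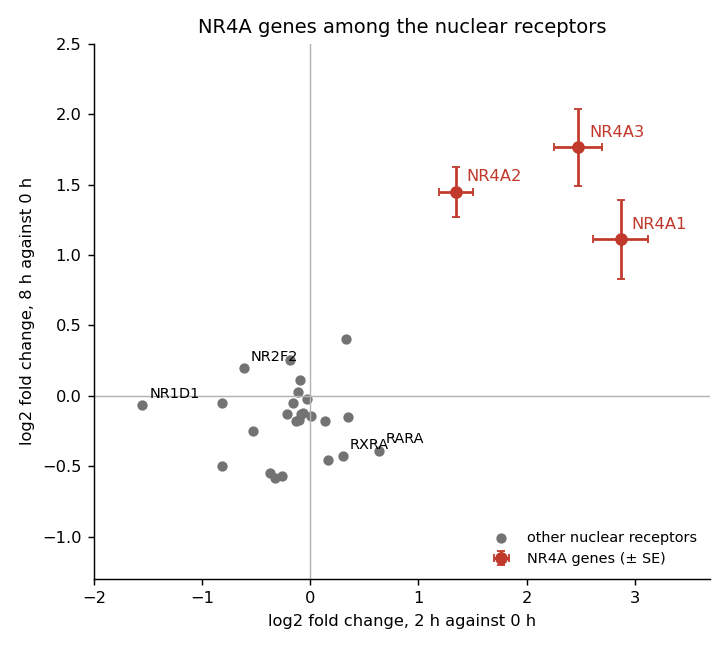
Log2 fold change at 8 h against that at 2 h, both against 0 h with the breeds combined, for the 3 NR4A genes (red, with SE) and 25 other nuclear receptors (grey). The NR4A genes stand at 1.35 to 2.87 on the 2 h axis and the other receptors at -1.55 to 0.63.

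The retinoid X receptors, the partners of NR4A1 and NR4A2, were not called. For RXRA the log2 fold change at 2 h was 0.30 ± 0.11 (edgeR FDR 0.0294) and at 8 h -0.43 ± 0.11 (FDR 0.00157), both under 2-fold, and RXRB had -0.06 ± 0.10 and -0.12 ± 0.09 (FDR 0.775 and 0.427). RXRG reached at most 0.574 CPM. Of 15 tested binding partners and co-regulators of the NR4A proteins none was called at either hour, and on the FDR limit alone 4 passed upward and 5 downward at 2 h, and none upward and 5 downward at 8 h, to be read against the shares of all rows given for the receptors.

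Among 27 transcription factors and kinases that act on NR4A promoters, 1 was called higher at 2 h, beside 2.08% of all rows. This was NFKB1, which encodes an NF-kB subunit (log2 fold change 1.84 ± 0.19, edgeR FDR 5.43e-19). It was also higher at 8 h (1.19 ± 0.17, FDR 7.56e-10). At 8 h HDAC9, a histone deacetylase that represses MEF2 target genes, was called lower (-1.88 ± 0.34, FDR 4.26e-06), as were 0.358% of all rows. From 0 h to 8 h its mean went from 14.1 to 6.40 CPM in Angus and from 17.1 to 2.15 CPM in Holstein. The kinase gene RPS6KA1 was called lower as well (-1.001 ± 0.33, FDR 0.0279), just past 2-fold, and not under the quasi-likelihood F test (FDR 0.0557). With each animal left out it ran from -1.107 to -0.887 and kept its call in 4 of 8 fits. Its highest FDR there was 0.0710, without Angus animal 2. SIK1, a kinase that is itself a CREB target, was higher at 2 h (0.94 ± 0.14, FDR 2.85e-09) and at 8 h (0.79 ± 0.13, FDR 1.73e-07) without reaching 2-fold. CREM, another CREB target, stood at 0.02 ± 0.11 and 0.06 ± 0.12 (FDR 0.946 and 0.832). The median of the list was 0.02 at 2 h and -0.06 at 8 h.

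Of 19 genes described elsewhere as NR4A targets, 12 were tested, and at 2 h 2 were called higher and 1 lower, beside 2.08% and 0.739% of all rows. The higher ones were IL8, a neutrophil chemokine, and NFKBIA, the inhibitor of NF-kB (log2 fold change 4.61 ± 0.31, edgeR FDR 1.31e-34), which are also direct NF-kB targets. IL8 was at most 0.24 CPM at 0 h and reached the level needed for the test only through samples after LPS. No test of it is given, though it stays in the counts. The lower one was PDK4, a kinase that holds back pyruvate oxidation (-2.19 ± 0.52, FDR 4.70e-04). At 8 h SPP1, which encodes osteopontin, was called higher as well (1.17 ± 0.36, FDR 0.0163), and not without Holstein animal 2 (1.10, FDR 0.0690). At 8 h 3 of the 12 were called higher and 1 lower, beside 1.07% and 0.358% of all rows. The lower one was again PDK4 (-1.28 ± 0.43, FDR 0.0299), which was not called under the quasi-likelihood F test (FDR 0.0604). With each animal left out PDK4 ran from -1.452 to -0.977 at 8 h and kept its call in 4 of 8 fits (highest edgeR FDR 0.164). The median log2 change of the 12 was 0.16 at 2 h and -0.001 at 8 h. In the breed interaction of 8 h against 0 h, 2 of the 12 were called higher in Holstein and none lower. Rows called there in either direction made up 0.0982%. The mean of IL8 went from 39.8 CPM at 2 h to 18.6 CPM at 8 h in Angus, and from 46.9 to 84.9 CPM in Holstein.

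Of the fibroblast targets of transforming growth factor beta that NR4A1 is described to repress, 7 were tested. SMAD7, an inhibitor within that pathway, was called higher at 2 h (1.97 ± 0.19, edgeR FDR 2.99e-22), as were 2.08% of all rows. It was called lower at 8 h than at 2 h, at -1.37 ± 0.18 (FDR 2.60e-12), as were 1.61% of all rows. COL1A1 was the 1 gene of the 7 called lower at 8 h against 0 h (-1.35 ± 0.35, FDR 0.00310), beside 0.358% of all rows. Without the 4 libraries in which it was counted differently it stood at -0.27 (FDR 0.212).

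Other immediate-early genes were called higher at 2 h in 12 of 29 cases tested and lower in 1, beside 2.08% and 0.739% of all rows, with a list median of 0.85. At 8 h against 0 h 3 of 26 were called higher and 2 lower, beside 1.07% and 0.358%, with a median of -0.015. From 2 h to 8 h 12 of 30 were called lower, beside 1.61% of all rows, and none higher, with a median of -0.45. NR4A2, at 0.11 from 2 h to 8 h, stood above that median, and NR4A1, at -1.75, and NR4A3, at -0.71, below it. Between the breeds at 2 h, 10 of 31 were called higher in Holstein and none lower, beside 2.44% of rows called higher. In the interaction at 2 h, with no block, 5 of 29 were called higher in Holstein and none lower, beside 0.193% of rows called higher. FOSB, an AP-1 subunit, had means of 0.503, 27.8 and 0.416 CPM at 0, 2 and 8 h in Angus, and 0.876, 91.9 and 0.748 CPM in Holstein. EGR3, a zinc finger factor, had 0.213, 4.56 and 0.133 CPM in Angus and 0.259, 19.5 and 0.264 CPM in Holstein. Both reached the level needed for the test through the 2 h samples, so no test of them is given. They remain in the counts above, which other genes low at 0 h could enter in the same way. PTGS2, the inducible cyclooxygenase, rose by 4.84 ± 0.34 on the log2 scale at 2 h (edgeR FDR 1.18e-31) and was still at 3.09 ± 0.34 above 0 h at 8 h (FDR 1.84e-14). IER3, an early response gene, rose by 2.69 ± 0.28 (FDR 6.18e-18) and kept 1.24 ± 0.17 at 8 h (FDR 1.07e-10). The NR4A1 values of 2.87 and 1.11 lay near those of IER3.

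Several of the rows that adjoin the members also moved, though not all in the same direction. An interval without a gene symbol begins at the end of NR4A3, on chromosome 8 from 65373696 to 65414611, and held 0.65 to 1.09 counts for each count of NR4A3. It rose at 2 h by 2.59 ± 0.24 (edgeR FDR 4.93e-23) and was 1.98 ± 0.27 above 0 h at 8 h (FDR 5.20e-10). At 0 h it also separated the breeds, with 1.87 to 3.02 CPM in Holstein and 3.84 to 5.13 CPM in Angus (-0.82 ± 0.21, FDR 0.00242). The interval before NR4A3, from 65321340 to 65339463, rose by 2.33 ± 0.21 at 2 h (FDR 3.25e-24) at a level of at most 6.997 CPM. The next gene, STX17, which encodes a syntaxin of autophagosomes, stood at -0.21 ± 0.08 at 2 h (FDR 0.0403).

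The interval that follows NR4A2, from 40017030 to 40703456 on chromosome 2, stood at 0.91 ± 0.15 at 2 h (edgeR FDR 3.78e-08) and was called at 8 h (1.06 ± 0.15, FDR 1.50e-10). GPD2, the mitochondrial glycerol phosphate dehydrogenase gene on the other side, stood at 0.31 ± 0.09 at 2 h and 0.63 ± 0.09 at 8 h (FDR 0.00208 and 2.22e-10). The interval between GPD2 and NR4A2 was too low for the test. Its mean was lower at 2 h than at 0 h, 0.333 beside 0.496 CPM in Angus and 0.429 beside 0.626 CPM in Holstein. Beside NR4A1, the interval from 27968040 to 27977006, which abuts the 3′ end of the gene, was low. It held 0.132 to 0.284 CPM at 0 h and 1.75 to 3.435 CPM at 2 h in Holstein. In Angus it held 0.172 to 0.291 CPM at 0 h and 0.837 to 3.05 CPM at 2 h. For 2 h against 0 h it missed the level needed for the test in Angus and with the breeds combined. In Holstein it reached that level only through the 2 h samples, so no test of it is given. The interval from 27992870 to 28019960, at the other end of NR4A1, moved less. Its mean went from 0.911 CPM at 0 h to 1.317 CPM at 2 h in Angus and from 0.811 to 1.694 CPM in Holstein. GRASP, a scaffold gene on the other side of NR4A1 that is known to respond to retinoic acid, stood at 0.83 ± 0.19 at 2 h (FDR 1.41e-04) and -0.10 ± 0.16 at 8 h (FDR 0.779). In every library the tables held more counts than matched reads, at 1.5 to 1.71 counts for each, so a read can be counted more than once. The part of reads shared between a gene and its adjoining intervals was not tested.

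**Figure D5:**
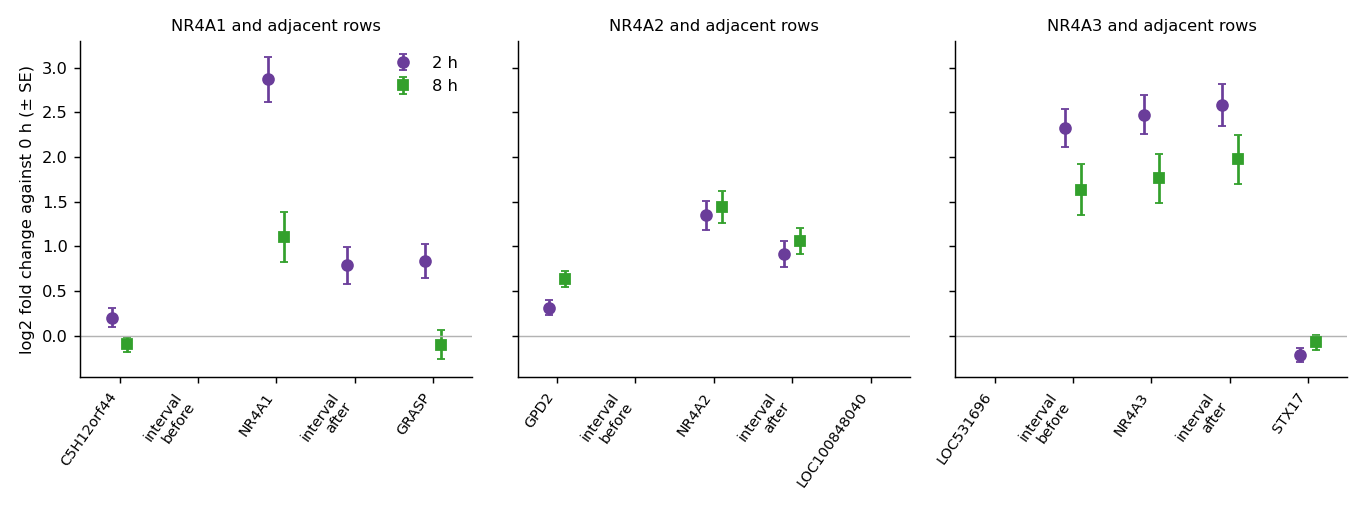
Log2 fold change against 0 h, breeds combined, with SE, for each NR4A row and the rows next to it in order of coordinate, at 2 h (circles) and 8 h (squares). Rows that missed the level needed for the test have no point, and the interval after NR4A3 moves with it, at 2.59 at 2 h, while STX17 stands at -0.21. The interval before NR4A3 stands at 2.33 at 2 h, and it reached the level needed for the test through its samples after LPS.

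Likeness of course was measured as the correlation of log2(CPM + 1) with each member over the 24 samples, among 12888 symbols, as a description, since the samples share animals, hours and libraries. The closest genes to NR4A1 were CLCF1, a cytokine of the interleukin 6 family (Pearson r = 0.958), IER3 (0.950), SDC4, a syndecan (0.942), LOC100139891 (0.935) and the ubiquitin ligase gene RNF19B (0.934). For NR4A2 they were the tyrosine kinase gene ABL1 (0.933), IL6 (0.932), TWIST2 (0.931), the phosphodiesterase gene PDE4B (0.916) and the hyaluronan receptor gene CD44 (0.915). For NR4A3 they were NAB1, a co-repressor of EGR factors (0.953), PTGS2 (0.944), LOC100138376 (0.943), the hyaluronan synthase gene HAS2 (0.939) and TGIF1 (0.936). Spearman's rho for these 15 genes ran from 0.882 to 0.946. No gene was among the closest 5 of more than 1 member. The study lists LOC100138376 on the same chromosome as PTGS2, with nearly the same fold changes at both hours. Whether those rows share reads was not tested. Between members r was 0.888 for NR4A1 with NR4A3, 0.885 for NR4A2 with NR4A3 and 0.747 for NR4A1 with NR4A2.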

How the data were processed

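RNA-Seq of 24 samples (8 animals, 3 hours) was used. The authors filtered the reads, aligned them to UMD v3.1 with NextGENe 2.3.4 and deposited raw read counts per row, with mean, highest and lowest coverage per row (signal), which were used here only to check the counting. Rows without a symbol held 12.28 to 20.53% of the counts and stayed in the fits, following the study's targets. Counts were tested with edgeR 4.0.16 in R 4.3.3, with its likelihood-ratio test and an FDR after Benjamini and Hochberg, on rows at 1 CPM or more in at least 50% of the samples compared, following the methods of the study. TMM scaling was chosen here. At this depth 1 CPM is 51 to 104.4 counts. Standard errors came from the information matrix. The main fits had no animal block. Same-numbered samples of a breed come from the same animal, and their deviations correlated (mean r 0.611 to 0.659, lowest 0.431), so the numbers pair the samples.

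The members, gene lists and rules were chosen with earlier results of these data known. Members are always named. From each list up to 4 genes are named, those called with the largest changes in LPS with the breeds combined and the same direction in all 8 animals, plus genes with a set role (RXRA, RXRB, CREM, SIK1, NFKBIA, IL8, COL1A1). Rows next to a member and the 5 symbols most like each member are also named. The result of 1 listed gene is not reported here. RARA, RARB and RXRG were named after their values were seen. Alternatives were the quasi-likelihood F test, DESeq2 1.42.0, other scalings and filters, rows with a symbol only, FDR alone, an animal block, a breed term, libraries left out and pseudocounts. The code was tested on simulated data.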

Additional observations from a re-analysis of the deposited data

Results flagged for a closer look

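The rise of NR4A1 at 2 h differed between the breeds in the test of the difference itself once the animal was a block, by 1.33 on the log2 scale (Holstein minus Angus, edgeR FDR 1.69e-12), and not without the block (1.27, FDR 0.245). All 4 Holstein animals rose further than all 4 Angus animals, a separation seen in this direction in 5.48% of rows. Of the other immediate-early genes, 5 of 29 were called higher in this interaction without the block, beside 0.193% of rows.

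The change of NR4A3 from 2 h to 8 h differed between the breeds in the same blocked test, by 0.59 (Holstein minus Angus, edgeR FDR 0.0382), and not without the block (0.52, FDR 1). With the quasi-likelihood F test in the blocked design, added once the data had been seen, it was 0.59 with an FDR of 0.105. Dixon's criterion set no sample apart in the 18 groups of levels and 18 groups of changes. With 4 values in a group it can set apart only an extreme one, and several calls turned on Angus animal 3, as given below.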

How the results depend on the processing

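All 3 members kept their calls at 2 h with the breeds combined under every alternative run. Of 888 values for the members and their differences, 836 kept direction and side of the limit. The cause of the changes below was not tested. With no TMM factors the median of all rows moved by -0.12 to 0.17. Counting error was small at this depth, and with 4 animals a breed the spread between animals set the precision.

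With the animal as a replicate block (same-numbered samples of a breed pair by animal), NR4A1 at 8 h lost its call on size (0.99, and 0.99 by the quasi-likelihood F test with the block). In Angus NR4A3 gained one at 8 h against 0 h (1.06), and from 2 h to 8 h NR4A1 (-1.57, F test -1.56) and NR4A3 (-1.07, F test -1.07) gained theirs, as did the NR4A1 interaction at 2 h (1.33, F test 1.33). The block changed no other call of a member.

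On the FDR alone NR4A3 was called for 8 h against 2 h (-0.71) and between breeds at 0 h (-0.71). The F test without the block lost NR4A2 in Angus at 8 h (1.35). NR4A3 in Angus at 8 h was called by DESeq2 (1.25) and with total counts (1.29). Total counts also called the NR4A1 interaction at 2 h (1.42) and reversed NR4A2 between breeds at 8 h (-0.043) and in the interaction of 8 h against 2 h (-0.0068), CREM at 2 h (-0.048), NR1D1 (0.02) and STX17 (0.0011) at 8 h, and RXRB for 8 h against 2 h (0.076). Breed as a term reversed IL8 for 8 h against 2 h (-0.12). A pseudocount of 1 CPM brought NR4A1 minus NR4A3 at 2 h past the limit (0.48). Without the 4 libraries with the other COL1A1 counting, NR4A1 was called between breeds at 2 h (1.16) and in the interaction at 2 h (1.69), and NR4A2 (0.24) and NR4A3 (0.22) between breeds at 2 h, NR4A2 in the interaction of 8 h against 2 h (-0.24), HDAC9 (0.083) and COL1A1 (0.0068) at 2 h reversed.

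With each animal left out in turn, values in Angus ran from 0.96 to 1.44 for NR4A2 at 2 h (lost without Angus 3), 1.01 to 1.54 for NR4A2 at 8 h (lost without Angus 1), and 0.64 to 1.58 for NR4A3 at 8 h (gained without Angus 4). From 2 h to 8 h they ran from -1.70 to -1.29 for NR4A1 and -1.19 to -0.92 for NR4A3 (both gained without Angus 3), and -0.040 to 0.11 for NR4A2. Between breeds at 2 h they ran from 0.64 to 1.16 for NR4A1 (gained without Angus 3), -0.23 to 0.24 for NR4A2 and -0.32 to 0.22 for NR4A3, and at 8 h from -0.086 to 0.84 for NR4A1 and -0.15 to 0.35 for NR4A2. The interactions ran from 1.14 to 1.46 for NR4A1 at 2 h and 0.76 to 1.71 for NR4A3 at 8 h (both gained without Angus 3), and -0.052 to 0.43 for NR4A2 at 2 h. NR4A1 minus NR4A2 at 8 h ran from -0.45 to -0.30 (lost without any Angus animal or Holstein 2 or 4) and NR4A1 minus NR4A3 at 2 h from 0.32 to 0.52 (gained without Angus 3). CREM ran from -0.023 to 0.063 at 2 h and -0.022 to 0.085 for 8 h against 2 h, and NR1D1 from -0.17 to 0.012 at 8 h.

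Counts of called rows moved by over 1.5 times in these cases. On the FDR alone they went from 568, 290 and 561 to 4436, 2606 and 4822 (2 h, 8 h and 8 h against 2 h, breeds combined), from 644, 517 and 805 to 3505, 3017 and 4791 in Holstein, from 608, 178 and 485 to 2799, 804 and 2491 in Angus, and from 781, 900 and 673 to 2816, 4050 and 3411 between breeds at 0, 2 and 8 h. The F test took Angus at 8 h from 178 to 90. With symbol rows only, and so fewer rows tested, they were 370 at 2 h and 367 for 8 h against 2 h (breeds combined), 410 and 525 in Holstein, 405 and 309 in Angus, and 28 and 36 for these interactions. Between breeds they were 259 at 0 h without the 4 libraries, 515 at 0 h and 446 at 8 h without Angus 4, and 1133 at 8 h without Angus 3. The interactions (56, 20 and 58) gave 88 and 116 on the FDR alone at 2 h and for 8 h against 2 h, and 126, 100 and 194 with the block. The F test gave 16, 0 and 26, the 0 beside 756 rows at an unadjusted p under 0.05, and 152 for 8 h against 2 h with the block. With each animal left out the interactions ran from 33 to 81, 2 (without Holstein 4) to 62 (without Angus 3) and 39 to 91 (without Angus 3), and the 8 h interaction was 6 without the 4 libraries.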
